A study of Mus musculus with 5 samples.

Results

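The genes described here make, store and break down serotonin, or encode transcription factors of serotonin cells: Tph1, Tph2, Ddc, Gch1, Slc18a1, Slc18a2, Maoa, Maob, Fev and Lmx1a. They were taken by name, and all 10 were found among the 54532 genes of the deposited read count table. The set was chosen by the counts of Tph1 per tumour, which differed between tumours of the same treatment. The Tph1 values are therefore given as a description, and nothing is read from a test of them. RNA-seq was done on 5 lung tumours of mouse small cell lung cancer, a tumour of neuroendocrine cells, 3 labelled LSN and 2 labelled vehicle. LSN is the label of an inhibitor of Aurora A kinase, a mitotic enzyme. All 5 tumours carry the genotype label RPP, which the labels do not expand, and which in this field usually stands for loss of Rb1, Trp53 and the Rb1 relative Rbl2. Tumours were flash-frozen at necropsy, and the sources used here give neither dose nor duration nor the age of the mice. Whether the 5 tumours came from 5 mice is not stated either, and a p-value here measures only how these samples spread, which may in part be technical.

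Serotonin is made from tryptophan in a pair of steps. Tryptophan hydroxylase, with tetrahydrobiopterin as cofactor, adds a hydroxyl group and sets the rate, and aromatic amino acid decarboxylase then removes the carboxyl group. The amine is packed into vesicles by a vesicular monoamine transporter, and after release and uptake it is oxidised by monoamine oxidases at the mitochondrial outer membrane. In the normal lung, neuroendocrine cells of the airway epithelium are a known site of serotonin storage, and mast cells and platelets also carry it.

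The promoters of 3 genes of the synthesis route and of a vesicle transporter are shown because their levels span the range from most to least variable. RefSeq windows from 250 bases before to 50 bases after a transcription start (GRCm38.p6) were found for 8 of the 10 genes. Capitals mark CCAAT or its reverse complement ATTGG, and TGACG, the half-site of the cyclic AMP response element, or its reverse complement CGTCA. The Tph1 window, from the inner of 2 annotated starts, is chr7:46667328-46667627 on the minus strand. The Ddc window, also from the inner start, is chr11:11890359-11890658 on the minus strand. The Gch1 window is chr14:47189364-47189663 on the minus strand and the Slc18a2 window chr19:59260628-59260927 on the plus strand.
Tph1: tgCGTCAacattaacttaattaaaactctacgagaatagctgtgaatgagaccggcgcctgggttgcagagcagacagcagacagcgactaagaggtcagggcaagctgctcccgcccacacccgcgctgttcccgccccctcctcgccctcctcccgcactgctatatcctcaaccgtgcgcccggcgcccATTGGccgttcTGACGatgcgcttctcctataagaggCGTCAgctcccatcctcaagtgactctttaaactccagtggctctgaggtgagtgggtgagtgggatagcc
Ddc: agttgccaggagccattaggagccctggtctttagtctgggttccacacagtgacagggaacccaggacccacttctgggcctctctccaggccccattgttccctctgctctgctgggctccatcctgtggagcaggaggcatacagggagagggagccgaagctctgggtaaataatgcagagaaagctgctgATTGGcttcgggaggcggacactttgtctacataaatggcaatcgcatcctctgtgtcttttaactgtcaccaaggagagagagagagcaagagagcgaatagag
Gch1: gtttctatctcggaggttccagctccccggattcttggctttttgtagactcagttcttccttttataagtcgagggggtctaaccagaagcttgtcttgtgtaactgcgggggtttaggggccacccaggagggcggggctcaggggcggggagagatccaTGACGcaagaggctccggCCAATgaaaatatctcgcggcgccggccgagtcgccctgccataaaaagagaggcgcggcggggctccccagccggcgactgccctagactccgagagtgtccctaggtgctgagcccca
Slc18a2: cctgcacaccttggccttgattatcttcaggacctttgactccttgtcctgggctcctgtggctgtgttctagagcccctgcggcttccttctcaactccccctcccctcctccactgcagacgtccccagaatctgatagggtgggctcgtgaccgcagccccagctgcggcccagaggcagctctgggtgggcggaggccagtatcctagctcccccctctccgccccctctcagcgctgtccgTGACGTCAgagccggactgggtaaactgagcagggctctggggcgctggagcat
A CCAAT match began 58 bases before the start in Tph1, 55 bases before it in Ddc and 70 bases before it in Gch1, on the reverse strand in Tph1 and Ddc. Of the 10 windows of these genes, 3 held CCAAT on either strand, against 37.4% of 32851 windows in the whole table. TGACG was in 5 of the 10 windows, both Tph1 windows among them, against 20.8% of all windows. The Tph1 window shown held 3 matches. The outer Tph1 window, not shown, held TGACG but no CCAAT, and the outer Ddc window, also not shown, held neither. The full palindrome TGACGTCA, which contains TGACG on both strands, was in the Slc18a2 window alone among these genes and in 1.79% of all windows. The E-box CAGCTG was in 2 of the 10 windows, those of Tph2 and Slc18a2, against 16.3% of all windows. The motifs were chosen after the sequences had been seen, and a match is a description of the letters only.

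Total counts lay between 17439049 and 19766604 per tumour. Levels are given as CPM, a count scaled to library size with TMM normalization, in which a count of 3 corresponds to 0.159 to 0.167 CPM. The labels name tumour cells, and the 14 neuroendocrine tumour markers were detected in every tumour. They summed to 5825, 9650 and 5681 CPM in LSN replicates 1, 2 and 3 and to 7698 and 2681 CPM in vehicle replicates 1 and 2. Markers of normal lung epithelium, 9 genes, summed to 1698, 351 and 1143 CPM in the LSN tumours and to 6355 and 8245 CPM in the vehicle tumours. Endothelial markers, 8 genes, summed to 117, 117 and 84.6 CPM in the LSN tumours and to 239 and 479 CPM in the vehicle tumours. Both sums were lower in every LSN tumour than in either vehicle tumour.

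Tph1 (chromosome 7, 46644641 to 46672537), the tryptophan hydroxylase of cells outside the brain, ranged from near absence to the most abundant gene of a tumour. It had 57, 119506 and 47 counts in LSN replicates 1, 2 and 3, against 13773 and 12 counts in vehicle replicates 1 and 2. On the scaled values this was 3.15, 6405 and 2.49 CPM in the LSN tumours and 741 and 0.670 CPM in the vehicle tumours. High and low tumours thus occurred under both labels, and the groups overlapped. In bulk tissue, fewer cells that express a gene and less RNA per cell cannot be told apart. In LSN replicate 2, Tph1 took 0.605% of all counts and ranked 1 among all genes. In vehicle replicate 1 it ranked 68. In LSN replicates 1 and 3 and vehicle replicate 2 it ranked 13341, 13473 and 16766. The level in LSN replicate 2 was 8.65 times that in vehicle replicate 1 and 9561 times that in vehicle replicate 2. The range over the tumours was 13.0 on the log2 scale, and 99.99% of the 17906 genes tested had a smaller range. As Tph1 was chosen because its counts differed between tumours, this rank is a description only. The counts in the 3 low tumours equalled 0.0477, 0.0393 and 0.0100% of the count of LSN replicate 2 (LSN replicates 1 and 3 and vehicle replicate 2), and whether reads passed between libraries was not tested.

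Tph2 (chromosome 10, 115078641 to 115185022), the tryptophan hydroxylase of serotonin neurons, was low in all tumours and near the detection limit in LSN replicates 1 and 3. It had 1, 24 and 3 counts in the LSN tumours and 10 and 6 counts in the vehicle tumours. Per length of gene model, as RPKM, Tph1 stood at 1038 and Tph2 at 0.447 in LSN replicate 2. In vehicle replicate 1 the levels were 120 RPKM for Tph1 and 0.187 RPKM for Tph2. The tumour with the highest Tph1 also had the highest Tph2, at 1.29 CPM.

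**Figure D1:**
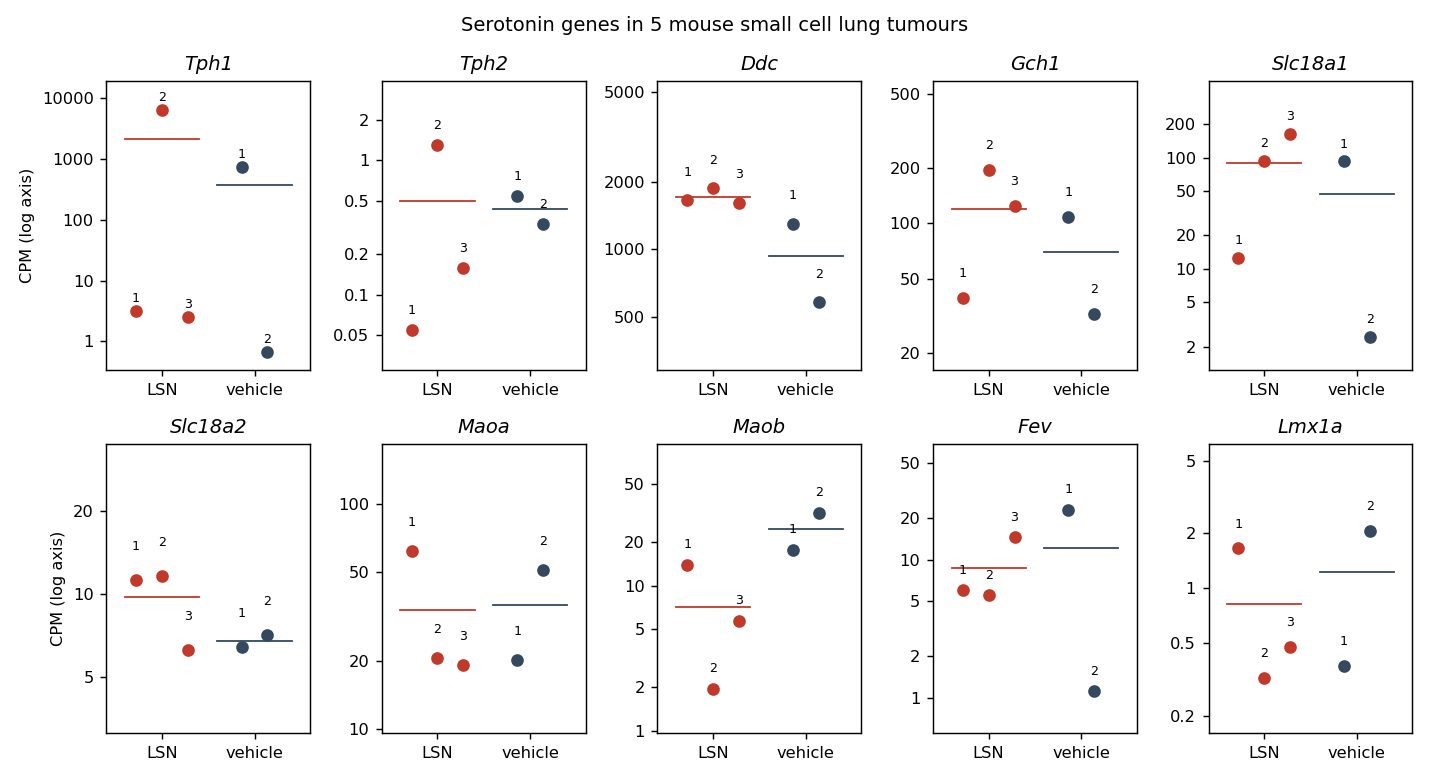
Level of each of the 10 serotonin genes in CPM on a log axis, 1 point per tumour with its replicate number and a line at the group mean, LSN on the left (n = 3) and vehicle on the right (n = 2) in each panel. Tph1 is at 6405 CPM in LSN replicate 2 and 741 CPM in vehicle replicate 1 and at or below 3.15 CPM in the other tumours, while Ddc is at 581 CPM or more in all 5.

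Ddc (chromosome 11, 11814101 to 11898144), the decarboxylase that serves serotonin and dopamine alike, was abundant in every tumour. It stood at 1648, 1864 and 1613 CPM in the LSN tumours and at 1291 and 581 CPM in the vehicle tumours. Every LSN tumour was therefore above both vehicle tumours, and vehicle replicate 2 was lowest. Among all genes tested, 8.48% had all LSN tumours above both vehicle tumours. The means were 1708 ± 136 CPM with LSN (SD, n = 3) and 936 ± 503 CPM with vehicle (SD, n = 2). The edgeR estimate was a log2 fold change of 0.87 ± 0.39 (SE; unadjusted p = 0.0708, adjusted p = 0.9996). Vehicle replicate 2 also had the lowest sum of neuroendocrine markers, 2681 CPM, and the part of this in the low Ddc value was not tested. Within a tumour the decarboxylase and the hydroxylase were not matched. Per length, Tph1 was 2.48 times Ddc in LSN replicate 2 and 0.415 times Ddc in vehicle replicate 1. In LSN replicates 1 and 3 and vehicle replicate 2, Ddc was 724, 897 and 1199 times Tph1. Ddc was the most abundant of the 10 genes per length in all tumours except LSN replicate 2, where it came after Tph1. Whether the outer or the inner Ddc start was used cannot be read from counts per gene.

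Gch1 (chromosome 14, 47153895 to 47189413), GTP cyclohydrolase, catalyses the rate-limiting step of tetrahydrobiopterin synthesis. It stood at 39.9, 195 and 124 CPM in the LSN tumours and at 108 and 32.5 CPM in the vehicle tumours. The levels were high in LSN replicates 2 and 3 and vehicle replicate 1 and low in the other two, so that the groups overlapped. In vehicle replicate 2 the low value stood beside the lowest neuroendocrine sum, whereas in LSN replicate 1 that sum, 5825 CPM, was above the 5681 CPM of LSN replicate 3, and the part of tumour cell content in the Gch1 values was not tested. The log2 fold change was 0.76 ± 0.80 (SE) by edgeR (adjusted p = 0.9996). LSN replicate 3 thus had cofactor and decarboxylase transcripts at high levels with Tph1 at 2.49 CPM.

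Among the other genes of cofactor recycling and tryptophan supply, Pts, the enzyme after Gch1 in the pathway, followed the same division. It stood at 25.2, 59.2 and 83.5 CPM in the LSN tumours and at 93.5 and 26.1 CPM in the vehicle tumours. Gchfr, the feedback regulator of Gch1, was low at 0.607 to 3.23 CPM, with its highest value in LSN replicate 3. Slc7a5, a transporter of large neutral amino acids including tryptophan, was lowest in the tumour with the highest Tph1. It had 60.8, 24.1 and 89.1 CPM in the LSN tumours and 43.5 and 75.1 CPM in the vehicle tumours. Of the 11 genes on this list, Gch1 included, 0 passed the adjusted threshold of edgeR, 5 had a log2 fold change above 0 and 6 below, and the median was -0.03, against 0.03 over all genes.

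Slc18a1 (chromosome 8, 69037711 to 69089235) encodes the vesicular monoamine transporter of endocrine cells, VMAT1. It had 12.6, 92.8 and 162 CPM in the LSN tumours and 92.2 and 2.46 CPM in the vehicle tumours. The same 3 tumours were high as for Gch1, and the highest level was in LSN replicate 3, where Tph1 was low. The range was 5.98 on the log2 scale, and 97.7% of genes had a smaller one. The log2 fold change was 0.91 ± 1.56 (SE) by edgeR (adjusted p = 0.9996), with overlapping groups. The start of Slc18a1 shares 590 bases with that of Atp6v1b2, a proton pump subunit on the other strand, and the libraries did not keep the strand. Atp6v1b2, looked up after its overlap was found, had 4948, 6444 and 5485 counts in the LSN tumours and 4872 and 4287 in the vehicle tumours, where Slc18a1 had 228, 1732 and 3062 counts with LSN and 1715 and 44 counts with vehicle.

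Slc18a2 (chromosome 19, 59260878 to 59296012), the transporter VMAT2 of neurons, platelets and mast cells, varied least of the 10 genes. It had 11.3, 11.7 and 6.30 CPM in the LSN tumours and 6.45 and 7.15 CPM in the vehicle tumours, a range of 0.88 on the log2 scale. Its log2 fold change was 0.52 ± 0.50 (SE) by edgeR (adjusted p = 0.9996). Which transporter prevailed differed between tumours. Per length, Slc18a1 was 5.59 and 18.1 times Slc18a2 in LSN replicates 2 and 3 and 10.1 times in vehicle replicate 1. In LSN replicate 1 the ratio was 0.787 and in vehicle replicate 2 it was 0.242. Other vesicle transporters also differed widely. Slc17a6, a glutamate transporter, had 23.8 CPM in LSN replicate 1 and 1 and 0 counts in LSN replicates 2 and 3, against 7.64 and 52.8 CPM in the vehicle tumours. Slc18a3, the acetylcholine transporter, had 12.3, 8.20 and 0 CPM in the LSN tumours and 1.08 and 8.65 CPM in the vehicle tumours. Of the 8 vesicle transporters listed, 7 were tested and 0 passed in edgeR.

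Most markers of the other cells that hold serotonin were low, with Kit, Hdc and Itgb3 as exceptions. Of the 12 mast cell and basophil markers, Kit, at 115 to 220 CPM in the LSN tumours and 103 to 119 CPM in the vehicle tumours, is also expressed by small cell lung cancer cells. Hdc, the histamine-forming enzyme, stood at 4.86, 1.34 and 1.96 CPM in the LSN tumours and at 20.2 and 27.4 CPM in the vehicle tumours. The other 10 summed to 5.69, 0.911 and 0.847 CPM in the LSN tumours and to 0.645 and 0.837 CPM in the vehicle tumours. Cpa3, the mast cell carboxypeptidase, had 11, 1 and 9 counts in the LSN tumours and 2 and 4 counts in the vehicle tumours. Mcpt4, another of the 10, had 30, 8 and 4 counts with LSN and 2 and 2 counts with vehicle. Tpsb2, the largest part of the sum in LSN replicate 1, had 44, 3 and 1 counts with LSN and 2 and 1 counts with vehicle. Ms4a2 went the other way, with 1, 0 and 0 counts with LSN and 0 and 5 counts with vehicle. All of these were below the level set for named genes and were chosen after their values were seen. The part of mast cells in the serotonin gene values was not tested. Platelet and megakaryocyte markers, 9 genes, summed to 28.5, 72.5 and 20.3 CPM in the LSN tumours and to 30.01 and 26.1 CPM in the vehicle tumours. Most of the sum in LSN replicate 2 came from the integrin gene Itgb3, at 62.4 CPM, which other cells also express. T and NK cell markers summed to 19.8, 3.81 and 13.3 CPM in the LSN tumours and to 7.10 and 17.3 CPM in the vehicle tumours.

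Maoa (chromosome X, 16619698 to 16687818), the monoamine oxidase that prefers serotonin, stood at 61.6, 20.7 and 19.3 CPM in the LSN tumours and at 20.3 and 50.9 CPM in the vehicle tumours. It was high in LSN replicate 1 and vehicle replicate 2, the tumours in which Gch1 and Slc18a1 were low. Its log2 fold change was -0.07 ± 0.69 (SE) by edgeR (adjusted p = 0.9996). Maob (chromosome X, 16709282 to 16817366), its neighbour on the chromosome, had 13.8, 1.93 and 5.66 CPM in the LSN tumours and 17.4 and 31.6 CPM in the vehicle tumours. All LSN tumours were below both vehicle tumours, which held for 10.4% of all genes, and the lowest level was in the tumour with the highest Tph1. The means were 7.13 ± 6.07 CPM with LSN (SD, n = 3) and 24.5 ± 10.02 CPM with vehicle (SD, n = 2). The log2 fold change in edgeR was -1.78 ± 0.84 (SE; unadjusted p = 0.0833, adjusted p = 0.9996). The summed markers of normal lung epithelium and of endothelium were also lower in every LSN tumour, and their part in the Maob values was not tested. Per length, Maoa was 2.99, 7.18 and 2.28 times Maob in the LSN tumours and 0.781 and 1.08 times in the vehicle tumours.

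Among further genes of uptake and breakdown, the high and low tumours differed from gene to gene. Slc29a4, the plasma membrane monoamine transporter, had 51.6, 10.99 and 12.1 CPM in the LSN tumours and 29.0 and 43.3 CPM in the vehicle tumours, highest where Maoa was highest. Slc6a4, the serotonin transporter, was low at 2.04, 0.643 and 1.01 CPM in the LSN tumours and 2.10 and 1.12 CPM in the vehicle tumours. Aldh2, a mitochondrial aldehyde dehydrogenase that takes the product of the oxidases further, had 72.6, 19.2 and 61.6 CPM in the LSN tumours and 103 and 79.2 CPM in the vehicle tumours. Sult1a1, a sulfotransferase, had 4.03, 1.23 and 1.27 CPM in the LSN tumours and 4.57 and 5.64 CPM in the vehicle tumours. Aanat, the enzyme that leads from serotonin to melatonin, had at most 2 counts in a tumour. Of the 16 genes on this list, Maoa and Maob included, 11 were tested and 0 passed in edgeR. Log2 fold changes were above 0 for 3 and below 0 for 8, with a median of -0.18.

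**Figure D2:**
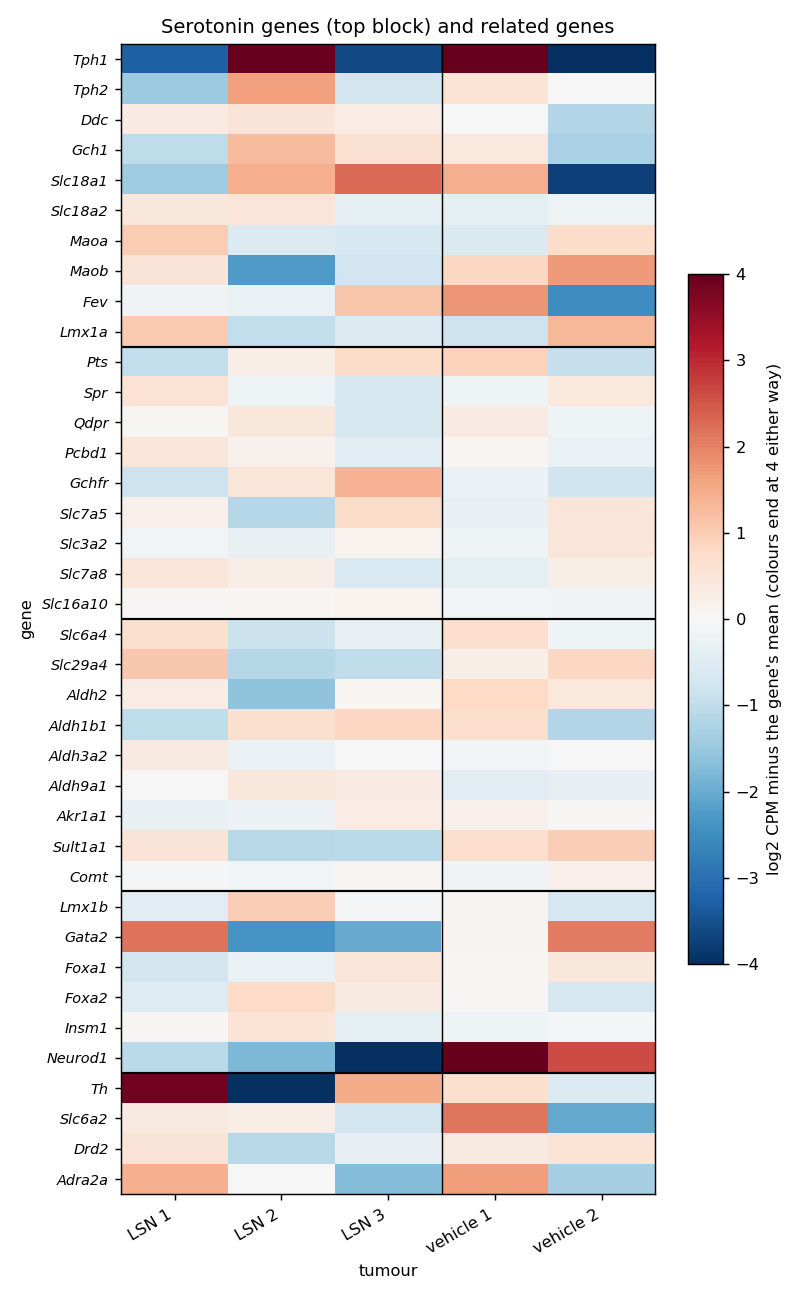
Log2 CPM of each gene in each tumour after subtracting the gene's mean over the 5 tumours, with the serotonin genes in the top block and, below them, most genes with a mean of at least 1 CPM from the lists of cofactor and tryptophan supply, uptake and breakdown, transcription factors and catecholamine genes. LSN tumours are left of the vertical line and vehicle tumours right of it, and Slc18a1 and Gch1 are red in LSN 2, LSN 3 and vehicle 1, where Maoa is blue.

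Fev (chromosome 1, 74881509 to 74885419), the ETS factor Pet1 that marks serotonin neurons, had 6.02, 5.52 and 14.6 CPM in the LSN tumours and 23.0 and 1.12 CPM in the vehicle tumours. It was highest in vehicle replicate 1. The tumour with the highest Tph1 had about as much Fev, 5.52 CPM, as LSN replicate 1, at 6.02 CPM, where Tph1 was at 3.15 CPM. Its log2 fold change was -0.47 ± 1.19 (SE) by edgeR (adjusted p = 0.9996). Lmx1a (chromosome 1, 167689237 to 167848741), a LIM homeobox factor known from dopamine neurons and gut enterochromaffin cells, was low, at 0.322 to 2.07 CPM. It had 30, 6 and 9 counts in the LSN tumours and 7 and 37 counts in the vehicle tumours, highest in the tumours with the highest Maoa.

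The other transcription factors of serotonin cells lay both above and below these levels. Gata3, Nkx2-2 and Hand2 averaged 0.548, 0.186 and 0.0764 CPM over the 5 tumours, less than Lmx1a at 0.979 CPM. Lmx1b, the relative of Lmx1a that serotonin neurons need, stood at 31.0, 82.6 and 40.3 CPM in the LSN tumours and at 45.0 and 25.8 CPM in the vehicle tumours. Per length it was 13.0, 179 and 58.8 times Lmx1a in the LSN tumours and 83.2 and 8.69 times in the vehicle tumours. Gata2, a zinc finger factor used by serotonin neurons and mast cells, had 40.4, 1.66 and 2.12 CPM in the LSN tumours and 9.63 and 38.0 CPM in the vehicle tumours, the highest levels being in the tumours with high Maoa. Of the 12 factors listed, Fev and Lmx1a included, 9 were tested and 0 passed in edgeR, with 4 log2 fold changes above 0 and 5 below and a median of -0.36. Neurod1, a neuroendocrine subtype factor with 14, 8 and 0 counts in the LSN tumours and 693 and 199 in the vehicle tumours, is the member of that list with the widest range.

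Ddc also serves catecholamine synthesis, and Th, the tyrosine hydroxylase at the head of that route, had its high and low tumours elsewhere than Tph1. Th had 205, 0.214 and 39.7 CPM in the LSN tumours and 22.1 and 9.60 CPM in the vehicle tumours. The tumour with the highest Tph1 was the lowest in Th, with 4 counts, and the tumour with the highest Th had 57 counts of Tph1. Per length, Th was 170 and 41.7 times Tph1 in LSN replicates 1 and 3 and 37.4 times in vehicle replicate 2. It was 8.74e-05 times Tph1 in LSN replicate 2 and 0.0779 times in vehicle replicate 1. Dbh and Pnmt, the later enzymes of noradrenaline and adrenaline synthesis, had at most 1 count in a tumour. Slc6a2, the noradrenaline transporter, had 1.93, 1.82 and 0.847 CPM in the LSN tumours and 6.88 and 0.279 CPM in the vehicle tumours. Adra2a, an alpha adrenergic receptor, had 20.3, 7.45 and 2.22 CPM in the LSN tumours and 24.3 and 2.96 CPM in the vehicle tumours. Of the 8 catecholamine genes listed, 4 were tested and 0 passed in edgeR.

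Of the 14 receptor genes listed, 6 were tested and 0 passed in edgeR. Htr3a, a subunit of the serotonin-gated ion channel, was detected in every tumour, at 21.6, 12.3 and 18.5 CPM in the LSN tumours and 17.1 and 3.52 CPM in the vehicle tumours. It falls outside the rule for named genes and was chosen after its values were seen. Htr1b, an inhibitory receptor, reached 13.7 CPM in LSN replicate 3 and stood at 4.09 and 1.13 CPM in LSN replicates 1 and 2 and at 2.26 and 1.67 CPM in the vehicle tumours. Htr4 was at 8.84 CPM in LSN replicate 1 and had 13 and 0 counts in LSN replicates 2 and 3, against 0 and 4 counts in the vehicle tumours. Htr5a had 5.25 CPM in LSN replicate 1 and 7.87 CPM in vehicle replicate 2 and at most 0.376 CPM in the other tumours. The kynurenine branch, which competes for tryptophan, was weak. Ido1 and Tdo2, its entry enzymes, had at most 4 and 17 counts in a tumour. Kynu, kynureninase, had 2.49, 1.61 and 3.44 CPM in the LSN tumours and 1.29 and 5.64 CPM in the vehicle tumours. Of the 12 genes of this branch, 6 were tested and 0 passed in edgeR, with a median log2 fold change of -0.55.

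The genes next to Tph1 did not share its range. Within 250 kb on either side lay 8 other protein-coding genes with a mean of at least 1 CPM, looked up after the Tph1 values had been seen. Leaving out Saa3, their ranges over the tumours were 0.44 to 1.63 on the log2 scale, against 13.0 for Tph1. Saal1, on the 5′ side, had 35.0, 62.6 and 40.3 CPM in the LSN tumours and 48.2 and 37.7 CPM in the vehicle tumours. Sergef, on the 3′ side, had 12.5, 15.2 and 11.6 CPM in the LSN tumours and 17.6 and 13.8 CPM in the vehicle tumours. Saa3, an acute phase gene, was lowest in LSN replicate 2, with 14.1, 1.501 and 111 CPM in the LSN tumours and 5.75 and 54.7 CPM in the vehicle tumours.

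**Figure D3:**
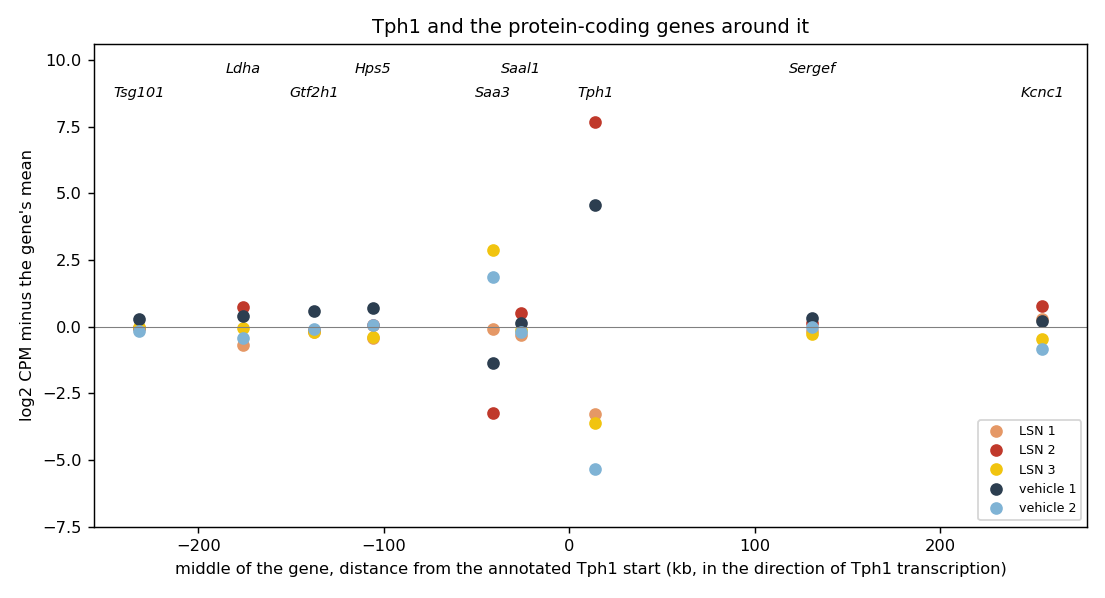
Log2 CPM minus the gene's mean over the 5 tumours for Tph1 and the 8 protein-coding genes around it (y axis), against the distance of each gene's middle from the annotated Tph1 start in kb (x axis), 1 point per tumour. Tph1 spreads over 13.0 on the log2 scale, Saa3 over 6.11 and the other genes over at most 1.63.

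Genes whose levels over the tumours lay closest to those of Tph1 were found on other chromosomes. Likeness was the root mean square difference between 2 genes in log2 CPM over the 5 tumours, each gene centred on its mean, among protein-coding genes with a mean of at least 1 CPM. The closest, at 0.93, was Rspo4, which encodes the secreted Wnt enhancer R-spondin 4. It had 1, 2457 and 1 counts in the LSN tumours and 454 and 0 counts in the vehicle tumours. Iapp, the gene of the islet hormone amylin, followed at 2.01, with 1.88, 82.4 and 0.529 CPM in the LSN tumours and 23.3 and 0 CPM in the vehicle tumours. Il20ra, a cytokine receptor subunit, came next at 2.32, with 0.221, 34.9 and 0.582 CPM in the LSN tumours and 22.7 and 0.279 CPM in the vehicle tumours. Pde11a, a phosphodiesterase of cyclic nucleotides, was at a difference of 2.42 and reached 275 CPM in LSN replicate 2. The other 4 were Apof, Gsdma, Syt4 and Pkd2l1, at differences of 2.47 to 2.58. All 8 were highest in LSN replicate 2 and second highest in vehicle replicate 1. None of the other serotonin genes was among them, the closest being Slc18a1 at 4.21. The measure is not scaled to range, so a gene that varies much less than Tph1 lies far from it whatever its pattern. Slc18a1 had the widest range of the other serotonin genes, 5.98 on the log2 scale against 13.0 for Tph1. Nothing is therefore read from their absence.

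**Figure D4:**
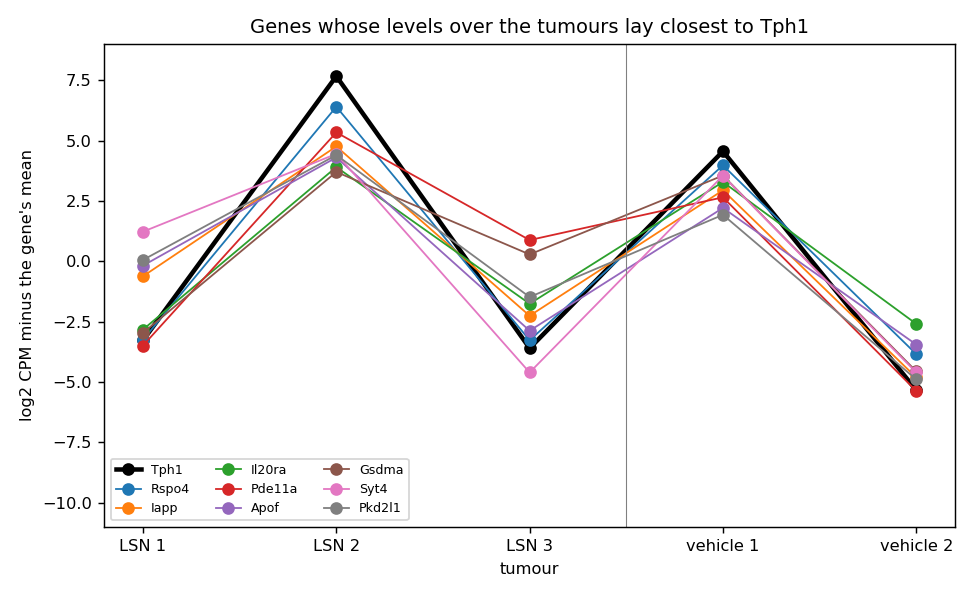
Log2 CPM minus the gene's mean over the 5 tumours (y axis) for Tph1 and the 8 genes closest to it by root mean square difference, by tumour (x axis), where lines only join the points of a gene. Rspo4, at a difference of 0.93, stays nearest to the black Tph1 line, and every gene peaks in LSN 2.

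Among the 10 serotonin genes themselves, the smallest difference was 0.35, between Maoa and Lmx1a. Ddc and Slc18a2 differed by 0.55 and Ddc and Gch1 by 0.74. Genes of small range lie close by this measure even where their patterns differ. Slc18a2, with a range of 0.88, was lowest in LSN replicate 3, and Ddc, with a range of 1.68, in vehicle replicate 2. Slc18a1 was closest to Fev, at 1.23, and Maob to Lmx1a, at 0.98. Maoa and Maob differed by 1.11. For Gch1 the closest genes of all were Tmem238, the growth factor receptor regulator Lrig1 and Frrs1, at 0.13 to 0.14. Those of Fev were Insc, Calca and Capn9, at 0.16 to 0.32. Calca, the peptide gene of pulmonary neuroendocrine cells, had 257, 358 and 698 CPM in the LSN tumours and 1573 and 61.2 CPM in the vehicle tumours. For Maob they were Slc4a5, the retinoic acid binding protein gene Crabp2 and the protease gene Pcsk5, at 0.13 to 0.22. The closest to Slc18a1 were Snai3, Hsbp1l1 and Rdh1, at 0.41 to 0.48. Tgfbr3, Abhd15 and Crybg3 were closest to Ddc at 0.061 to 0.10, St3gal2, Pkia and Peli2 to Maoa at 0.089 to 0.097, and Tmem185a, Slc39a6 and Cyth1 to Slc18a2 at 0.065 to 0.079.

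The comparison of LSN with vehicle asked whether tumours exposed to the inhibitor differ. In edgeR, 0 of the 17906 tested genes (0%) were called at an adjusted p of 0.05, 764 had an unadjusted p under 0.05, and DESeq2 called 100 genes. All 10 serotonin genes were in the edgeR fit, which covered all genes, and nothing is read from the outcome for Tph1. Of the 10, 0 passed in edgeR or limma-voom, and 0 had an unadjusted p under 0.05 in edgeR. In DESeq2, 0 of those with a p-value passed. In limma-voom the unadjusted p was 0.0357 for Ddc and 0.0334 for Maob (adjusted p = 0.999 for both). In DESeq2 it was 0.0414 for Maob (adjusted p = 0.736). DESeq2 gave no p-value for Tph1. The share called by DESeq2 among all genes was 0.539%. Log2 fold changes were above 0 for 6 genes and below 0 for 4, with a median of 0.36, against 0.03 over all genes. The groups did not overlap for Ddc, higher in all LSN tumours, and for Maob, lower in all of them, and overlapped for the other 8. A range of at least 2 on the log2 scale was reached by 7 of the 10 genes, and by 6 of the 9 other than Tph1, where 30.2% of all genes reached it. Since Tph1 was chosen for its range, nothing is read from its part in that count. Tph2 and Lmx1a, also among the 7, were low, at or below 2.07 CPM in every tumour. Of the 59 tested genes on the functional lists other than the 10, 29 reached such a range, so it was not particular to the serotonin genes. With 3 and 2 tumours, the smallest p that an exact permutation test allows is 0.1, two-sided on the absolute difference.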

How the data were processed

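RNA-seq was done on 3 LSN and 2 vehicle tumours, grouped by the treatment label. Per the labels' protocols, the authors made libraries without strand information, mapped paired reads to mm10 with STAR and used DESeq2. Neither the STAR version nor the counter and gene models are stated there. The authors deposited raw read counts per gene, with a gene length in bases that served here for RPKM.

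Counts were tested in edgeR 4.0.16 under R 4.3.3 by quasi-likelihood (glmQLFTest, robust, TMM; filterByExpr, min.count 10, min.total.count 15), fitted on all genes and adjusted by Benjamini-Hochberg. Adjusted p-values in the text come from it unless another tool is named. The standard error is the log2 fold change divided by the square root of F. Log2 CPM used a prior count of 2, and the fit was first run on simulated counts as a check of the code. The floor of 3 counts covers counting error only, while the SD and the standard error also reflect how the tumours spread.

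The serotonin genes and the 8 functional and 9 marker lists were chosen with earlier results of these data known. Named genes were the 10 genes, up to 3 genes per functional list and 2 per marker list that had the widest range and averaged 1 CPM or more, and the 8 genes closest to Tph1 or 3 closest to another gene. Not all of these are printed. Other names are background or were chosen after their values were seen.

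Of the marker lists not given in the report, fibroblast and smooth muscle markers summed to 823, 739 and 430 CPM in the LSN tumours and 739 and 1507 CPM in the vehicle tumours, and macrophage markers to 1226, 706 and 1358 CPM in the LSN tumours and 824 and 3121 CPM in the vehicle tumours. Most of the macrophage sum was Lyz2, which alveolar type II cells also express, and the other 8 summed to 440.3, 320.1 and 306 CPM in the LSN tumours and 179 and 385 CPM in the vehicle tumours. Liver markers summed to 40.1, 3.16 and 7.99 CPM in the LSN tumours and 16.0 and 24.8 CPM in the vehicle tumours, mostly Ttr, and neuron markers to 671, 255 and 235 CPM in the LSN tumours and 349 and 486 CPM in the vehicle tumours. Values of some listed genes are not reported here. Alternatives were DESeq2 1.42.0, limma-voom (limma 3.58.1), RLE scaling, total counts, other filters, a prior count of 0.5 and leaving out each tumour.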

Additional observations from a re-analysis of the deposited data

How the results depend on the processing

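None of the serotonin genes that could be tested was called under any alternative run. Tph2 had a value in 9 and Lmx1a in 10 of the 11 alternatives, and DESeq2 gave no p for Tph1. The count over all genes was 0 by edgeR under each setting, limma-voom called 0 (858 at an unadjusted p under 0.05), and DESeq2 called 100 (1218 at an unadjusted p under 0.05). Of 107 log2 fold changes of the 10 genes under other settings, 97 kept their direction and 10 reversed. limma-voom gave -0.73 for Tph2 and 0.61 for Fev. Without LSN replicate 2 the value for Tph1 was -7.04, and it lay between -7.04 and 11.6 when each tumour was left out in turn. Maoa reversed to 0.18 without LSN replicate 2, 0.21 without LSN replicate 3 and 0.74 without vehicle replicate 2, within -0.84 to 0.74. Fev reversed to 2.97 without vehicle replicate 1 (-1.40 to 2.97). Without vehicle replicate 2, Tph2 was -0.10 (-0.10 to 0.71), Slc18a1 -0.046 (-0.046 to 5.19) and Lmx1a 1.11 (-1.32 to 1.11). Ddc stayed between 0.41 and 1.57, Gch1 between 0.15 and 1.89, Slc18a2 between 0.37 and 0.75 and Maob between -2.69 and -1.29. The cause was not tested. Of the 10 genes, 7 had a range of at least 2 under each scaling, and 5 to 7 with a tumour left out, the 5 being without LSN replicate 2. The 8 genes closest to Tph1 were the same with RLE scaling or total counts, and 6 of them with a prior count of 0.5. No paired analysis was possible because the labels give tumour numbers that no LSN tumour shares with a vehicle tumour. With 3 counts or fewer, as for Tph2 in LSN replicates 1 and 3, depth sets the limit.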
